A study of Arabidopsis thaliana with 4 samples.

Results

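HDA7 (AT5G35600) is an Arabidopsis gene for a histone deacetylase of the RPD3-like group, also called class I, and its level was examined here in unopened floral buds of wild type and cdm1 mutant plants. The set was chosen by locus as HDA7 and its relatives HDA9 (AT3G44680), HDA10 (AT3G44660), HDA17 (AT3G44490), HDA6 (AT5G63110) and HDA19 (AT4G38130), with the difference of HDA7 between the genotypes already known. Of these 6 loci, 1 was tied by the platform annotation to a probe set of a single gene, and that was HDA7. The other 5 loci are not analysed here, so HDA7 could not be set beside its class I relatives. The measured genes nearest to it in function were taken from lists of other deacetylases, their partners and opposing enzymes, and chromatin genes. In all, 13286 loci had a single-gene probe set.

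Histone deacetylases remove acetyl groups from lysines of the histone tails, which is generally linked to lower transcription of the gene concerned. The RPD3-like enzymes of Arabidopsis work in complexes with scaffold proteins of the SIN3 family, histone-binding WD40 proteins and co-repressors. HDA6 is known for gene silencing together with DNA methylation, HDA19 for repression through co-repressors in flower and seed development, and HDA9 for flowering time and ageing. HDA10 and HDA17 are short genes similar to HDA9. HDA7 is known from loss-of-function plants, in which female gametophyte and embryo development were impaired.

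The series holds 4 Affymetrix arrays, 2 of cdm1 and 2 of wild type, all of Col-0 plants sampled 24 days after germination, with 500 ng of total RNA labelled for each. CDM1 encodes a CCCH zinc finger protein whose loss disturbs callose around the microspores. The labels name no allele for the mutant, and they mention moderate drought for some plants without tying it to any of these arrays. Replicates are called biological in the study's design text, which does not say whether plants were pooled. Values are RMA levels on the log2 scale, running from 2.64 to 14.0 over the arrays. Correlations across probe sets were 0.996 and 0.998 within genotypes and between 0.990 and 0.994 across them. Whole buds were used, so fewer cells of a type and less RNA per cell cannot be told apart. The labelled tissue was checked against floral organ genes, of which 3 of 11 were measured. The organ growth gene JAG read 7.00 and 6.89 in wild type and 6.63 and 6.53 in cdm1, without overlap. Its log2 difference, cdm1 minus wild type, was -0.36 (limma adjusted p = 0.177). The boundary gene PTL read from 6.62 to 6.91 over the 4 arrays. The petal gene RBE read from 3.70 to 4.00, in the dimmest 33.3% of probe sets. For PTL and RBE the genotypes overlap. Organ identity genes such as AG and AP3 are not analysed here.

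HDA7 read lower in both cdm1 arrays than in both wild type arrays. Its log2 level was 7.34 and 7.45 in wild type replicates 1 and 2, and 5.97 and 6.22 in cdm1 replicates 1 and 2. The lowest wild type array lay 1.12 log2 units above the highest cdm1 array. The 2 cdm1 arrays differed from each other by 0.25 and the 2 wild type arrays by 0.12, so the gap between genotypes was 4.46 times the larger gap within a genotype. The group levels were 6.09 ± 0.18 in cdm1 and 7.40 ± 0.082 in wild type (SD, n = 2 arrays each). The log2 difference, cdm1 minus wild type, was -1.31 (SE 0.12, 95% interval from -1.60 to -1.01), which is 2.47-fold lower in cdm1. Over the 4 ways of setting a cdm1 array against a wild type array, the difference ran from -1.49 to -1.12. These values belong to the contrast on which HDA7 was chosen and are given as a description.

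**Figure D1:**
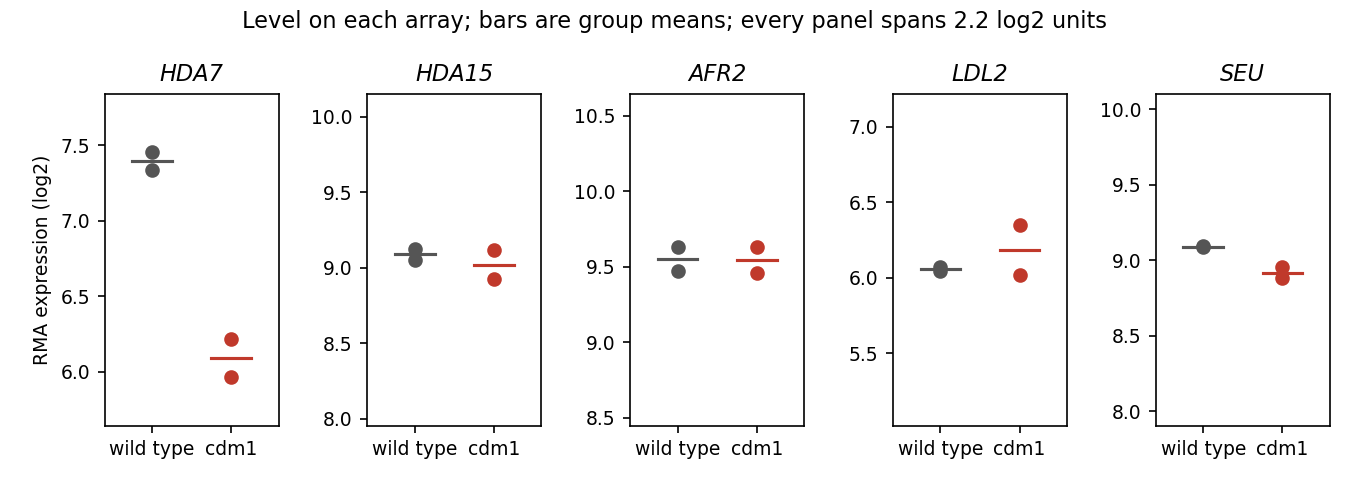
RMA log2 level of HDA7, HDA15, AFR2, LDL2 and SEU on each of the 4 arrays (points) by genotype, with the group means as bars; every panel spans the same length of the log2 axis, and heights are not comparable between panels. HDA7 sits between 7.34 and 7.45 in wild type and between 5.97 and 6.22 in cdm1, while the groups overlap for HDA15, AFR2 and LDL2.

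Against all features, limma called 303 of 22746 probe sets (1.33%) at the adjusted threshold of 0.05, and 166 of them (0.73% of the total) were lower in cdm1. HDA7 was among the lower ones, and by size it took place 57 of those 166. Its groups do not overlap, which was also true of 47.3% of all probe sets. Since HDA7 was chosen on this contrast, nothing is read from its place. The call was lost with either wild type array left out and in the fit blocked by replicate number (limma adjusted p = 0.111), at differences of like size. Without wild type replicate 1 the difference was -1.36 (limma adjusted p = 0.117), and with wild type replicate 2 left out it was -1.25 (limma adjusted p = 0.154), and in both of these fits limma called 0 of all probe sets (1619 and 2133 at an unadjusted p of 0.05). Without cdm1 replicate 1 it was -1.18 and without cdm1 replicate 2 it was -1.43, and both passed (limma adjusted p = 0.0137 and 0.00598). HDA7 averaged 6.74 over the 4 arrays, above the 5.32 that bounds the dimmest 33.3% of probe sets. Whether its cdm1 level lay above background was not tested.

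Other deacetylases were represented by HDA15, a member of the wider RPD3/HDA1 family outside class I that is known to repress chlorophyll and light-response genes with PIF factors. It was the 1 gene measured out of 12 listed loci, which also covered the plant-specific HD-tuins and the sirtuins. HDA15 read 9.05 and 9.12 in wild type and 8.92 and 9.12 in cdm1, and the groups overlap. Its log2 difference was -0.067 (SE 0.11, 95% interval from -0.33 to 0.19, limma adjusted p = 0.828), and it was 0.029 without cdm1 replicate 1. Taken within each array, the difference of HDA7 was 1.24 log2 units more negative than that of HDA15, since the log2 ratio of the pair changed by -1.24 from wild type to cdm1. Over the 4 pairings of a cdm1 with a wild type array this change ran from -1.29 to -1.19. It is a description, because HDA7 was chosen for its own difference, and it does not show that HDA15 was unchanged.

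Partners of the deacetylases gave 3 measured genes out of 42 loci listed as complex subunits, co-repressors or histone acetyltransferases, and limma called none of them (0 at an unadjusted p of 0.05). Over all 22746 probe sets limma called 1.33%, and 3470 had an unadjusted p under 0.05. AFR2, which encodes a SAP30-type subunit of SIN3 deacetylase complexes, read 9.47 and 9.63 in wild type and 9.46 and 9.63 in cdm1. Its log2 difference was -0.0056 (95% interval from -0.28 to 0.27), with the opposite sign after median centring (0.0051). LDL2, a homologue of the histone demethylase LSD1, read 6.04 and 6.07 in wild type and 6.35 and 6.02 in cdm1. The 2 cdm1 arrays of LDL2 therefore disagreed, and its log2 difference of 0.13 (95% interval from -0.19 to 0.45) became -0.041 without cdm1 replicate 1.

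SEU, a co-repressor of floral homeotic genes that works with LUG, was the 1 gene measured of 8 listed co-repressors. It read 9.09 in both wild type arrays and 8.96 and 8.88 in cdm1. The SEU groups do not overlap, and the log2 difference was -0.17 (SE 0.091, 95% interval from -0.40 to 0.051, limma adjusted p = 0.434). With these arrays, a difference of HDA7's size lies outside the 95% intervals of HDA15, AFR2, LDL2 and SEU. Over the 8 lists of deacetylases, partners, acetyltransferases, silencing factors and repressed genes, 4 of 76 loci were measured and limma called 0 of them, against 1.33% of all probe sets. The median log2 difference of the 4 genes was -0.036, beside 0.0036 over all probe sets. No histone acetyltransferase, DNA methylation factor or listed gene known to be repressed through RPD3-like enzymes is analysed here.

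A wider group of chromatin genes was drawn from the gene table by name (histones, chromatin remodelling ATPases, SWI3 subunits and jumonji proteins) after earlier results were known. Of its 68 loci, 17 were measured, and limma called none, against 1.33% of all probe sets. An unadjusted p under 0.05 was found for 2 of the 17, against 3470 of 22746 over all probe sets. The log2 differences of the 17 ran from -0.66 to 0.18, with a median of -0.057, and 16 of the 17 were smaller than 0.5 in size. Over all probe sets the differences ran from -3.15 to 2.84, with a median of 0.0036, and the share smaller than 0.5 was not counted. The point estimate of HDA7 lay below all 17, and the interval of the linker histone gene HIS1-3, from -1.45 to 0.13, includes it. HDA7 was chosen on this contrast and the 17 were taken by name, so its lower place was likely beforehand and is a description.

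**Figure D2:**
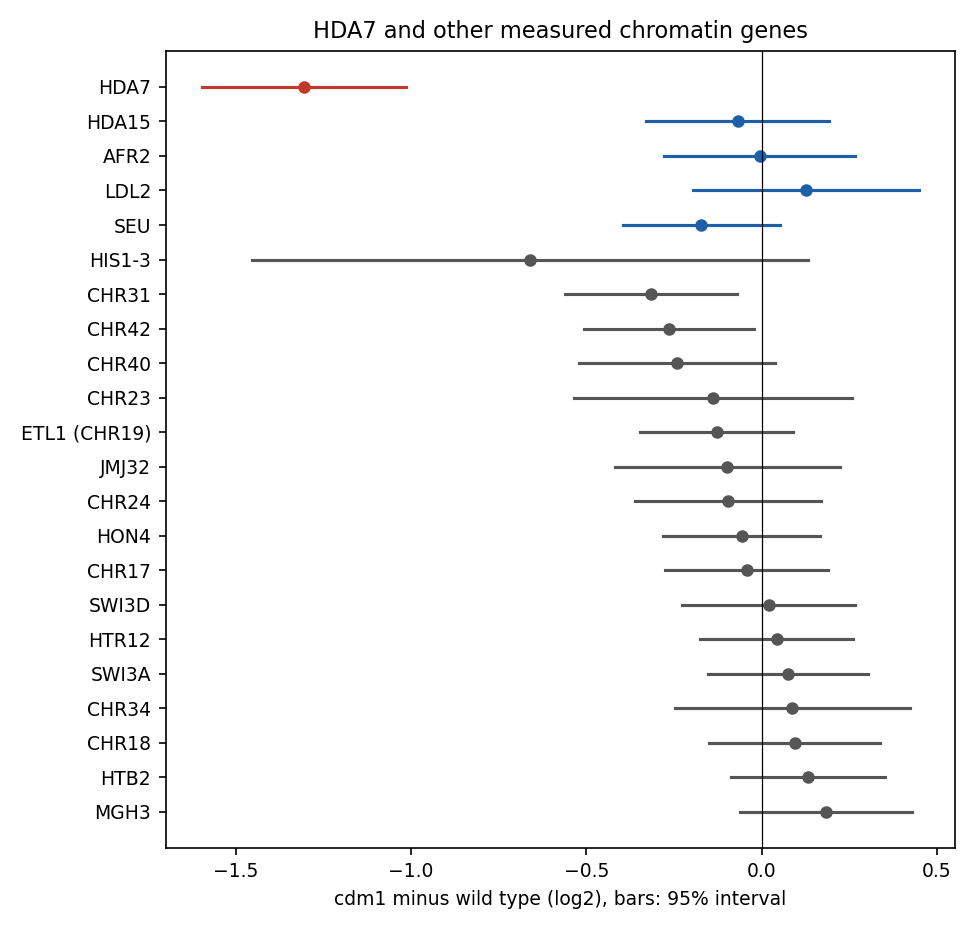
Log2 difference (cdm1 minus wild type) of HDA7 (red), of the 4 measured genes of the deacetylase lists (blue) and of 17 further chromatin genes (grey), as points with 95% intervals from limma. HDA7, which was chosen on this contrast, lies at -1.31, and the other genes lie between -0.66 and 0.18.

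HDA7 was also compared with the genes beside it on its chromosome. Of 20 protein-coding genes, 10 on each side, 9 had a single-gene probe set, and limma called 0 of the 9, against 1.33% of all probe sets. An unadjusted p under 0.05 was found for 1 of the 9, against 3470 of 22746 over all probe sets. The log2 differences of the 9 ran from -0.24 to 0.37, with a median of -0.014. The nearest measured gene on the lower side, AT5G35580, lies 2 genes away and read 3.86 and 3.96 in wild type and 3.91 and 3.80 in cdm1, a difference of -0.051 (95% interval from -0.29 to 0.19). The nearest on the upper side, AT5G35640, lies 6 genes away and read 4.19 and 4.11 in wild type and 4.42 and 4.32 in cdm1, a difference of 0.22 (95% interval from -0.016 to 0.45). Both are in the dimmest 33.3% of probe sets, and signal above background was not tested. The neighbour with an unadjusted p under 0.05 was AT5G35570, 3 genes away, named after its values were seen. It read 6.35 and 6.59 in wild type and 6.68 and 7.00 in cdm1 (log2 difference 0.37, limma adjusted p = 0.313), opposite in sign to HDA7. PAA1, the gene next to HDA7, is not analysed here.

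**Figure D3:**
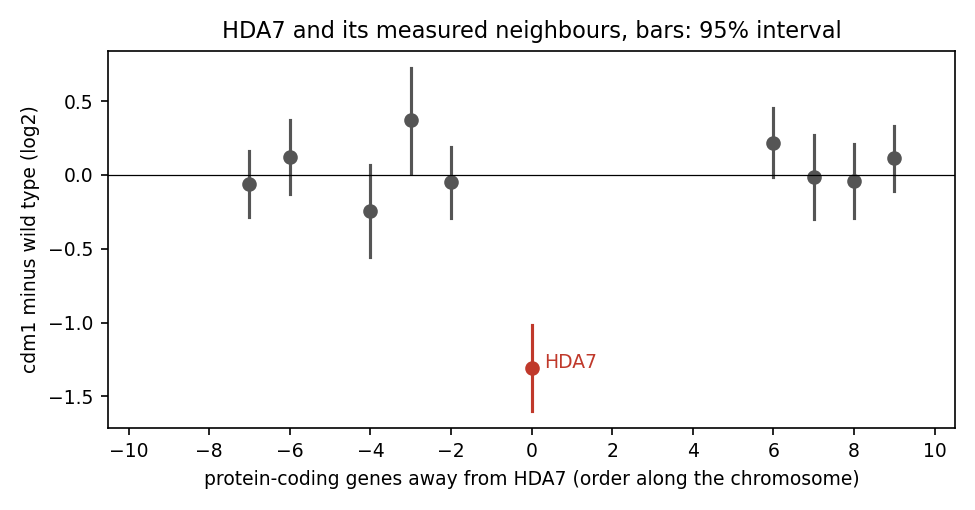
Log2 difference (cdm1 minus wild type) of HDA7 (red) and of its 9 measured neighbours (grey), with 95% intervals, by position in the order of protein-coding genes along the chromosome. The neighbours lie between -0.24 and 0.37, and HDA7, which was chosen on this contrast, at -1.31.

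The named genes most like HDA7 over the 4 arrays were found by the Euclidean distance between log2 values, each gene being centred on its own mean. The nearest were AT1G60240 at a distance of 0.069, AT1G23700 at 0.072, AT1G14680 at 0.12, AT1G74150 at 0.13 and AT2G32310 at 0.14. AT1G23700 belongs to the protein kinase superfamily, AT1G74150 encodes a kelch-repeat protein and AT2G32310 a CCT-motif protein. AT1G60240 read 7.90 and 7.97 in wild type and 6.57 and 6.74 in cdm1, and AT1G23700 read 8.07 and 8.11 in wild type and 6.64 and 6.85 in cdm1. As in HDA7, the lowest array of both genes was cdm1 replicate 1 and the highest was wild type replicate 2. The choice by distance over the same 4 arrays favours such a shared order. The 5 genes were 2.28-fold to 2.55-fold lower in cdm1, where HDA7 was 2.47-fold lower. These genes were sought with the genotype contrast included, so their differences are a description, and HDA7 was 1 of 49 named loci with a difference at least as negative as its own.

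**Figure D4:**
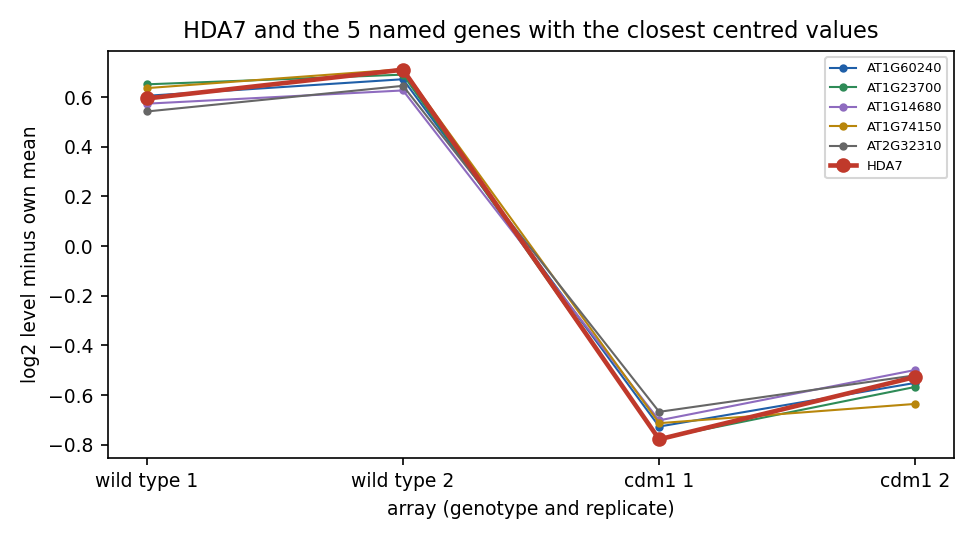
Log2 level minus the gene's own mean (vertical axis) on each of the 4 arrays (horizontal axis) for HDA7 (thick red line) and the 5 named genes closest to it. All 6 genes lie above their mean in wild type and below it in cdm1, with differences between -1.35 and -1.19.

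Of 16 measured markers of cell types of the bud, limma called 1, the tapetum gene SHT, as higher in cdm1. Over all 22746 probe sets limma called 303 (1.33%), 137 of them higher in cdm1, and 3470 had an unadjusted p under 0.05. The mean log2 level of the 5 measured meiocyte genes, of 12 listed, was 5.45 and 5.72 in the wild type arrays and 5.31 and 5.32 in the cdm1 arrays, and 4 of the 5 had negative differences, none of them called (3 at an unadjusted p of 0.05). The mean of the 5 measured tapetum genes, of 16 listed, was 9.99 to 10.2 in wild type and 10.8 to 10.9 in cdm1. All 5 differences were positive (3 at an unadjusted p of 0.05). They were uneven in size, with SHT at 1.73, ATA27 at 0.94, EXL1 at 0.54, AMS at 0.18 and A9 at 0.12. The 2 measured ovule and carpel genes, of 7 listed, had means of 6.31 to 6.38 in wild type and 6.44 to 6.46 in cdm1, with 0 at an unadjusted p of 0.05. The means of the 3 measured late pollen genes, of 9 listed, overlapped between genotypes (4.94 to 5.24 in wild type, 4.95 to 5.06 in cdm1), but 2 of the 3 had an unadjusted p under 0.05 with opposite signs, PLIM2A at -0.49 and ACT12 at 0.38. The genotypes also overlapped in the level of the 1 green tissue gene, LHCB4.2 (12.59 to 12.65 in wild type, 12.64 to 12.77 in cdm1). Of these 16 marker genes, SPO11-2, PLIM2A, ACT12 and INO were in the dimmest 33.3% of probe sets. The part of cell composition in the HDA7 difference was not tested.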

How the data were processed

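The authors deposited 1 log2 level per probe set and array, made with RMA and the R package affy, per the submitters' processing notes. Versions, chip definition and genome build were not given in the sources used. RMA normalises the arrays together and compresses differences of dim probe sets. Scanner files were not used here, so background and scan batches were not tested. Precision is limited by the number of arrays.

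Gene names came from GEO's platform annotation (13513 with 1 symbol, 503 with several, 8730 not listed), and 13436 were matched by gene ID to TAIR10.1 gene records, used for names and gene order only. Limma 3.58.1 in R 4.3.3 was fitted to all 22746 probe sets with genotype as the only term, two-sided, with Benjamini-Hochberg adjustment at 0.05 and 2 residual degrees of freedom plus 4.00 from the prior. The fit was tested on simulated data. A locus with several probe sets was represented by the one with the highest mean. Levels of different probe sets were ranked for this choice and to mark dim probe sets, and were not otherwise compared.

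Members, lists and tests were chosen with earlier results of these data known. Named genes were HDA7, called list members or the 2 with the smallest p, called neighbours and the nearest measured one on each side, and the 5 genes most like HDA7; others are named as chosen afterwards. The fit was repeated after median centring, after another quantile normalisation, without the dimmest 33.3% of probe sets, with a variance trend (robust or not), with the replicate number as a block, and without each array in turn.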

Additional observations from a re-analysis of the deposited data

How the results depend on the processing

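The difference of HDA7 kept its direction in all 10 alternatives and passed limma's threshold in 7. With the replicate number as a block it was -1.31 but did not pass (limma adjusted p = 0.111), with 1 residual degree of freedom, and leaving out 1 array gave -1.43 to -1.18. Its limma adjusted p lay between 0.00441 and 0.154 in these fits. The block gave 0 calls over all probe sets (3110 at an unadjusted p of 0.05), robust estimation with the trend gave 465, and leaving out 1 array gave 0 to 1040. A group left with a lone array takes its spread from the other genotype, and the cause of these shifts was not tested. Deviations of arrays with the same number correlated at -0.066 over all probe sets, and no label pairs them. Neither shows whether such arrays shared a batch, which was not tested. The deacetylase lists (4 measured genes) and the neighbours (9, or 6 without the dim probe sets) kept 0 calls in each alternative with all 4 arrays. With the block this was fixed, since no probe set was called. The main fit called 1.33% of all probe sets, so 0 calls among so few genes tells little. AFR2 turned sign after median centring (0.0051). With 1 array left out, AFR2 ran from -0.094 to 0.083, HDA15 from -0.16 to 0.029, LDL2 from -0.041 to 0.29 and AT5G35580 from -0.11 to 0.0066, each with both signs. The comparison of HDA7 with its class I relatives was not run, because none of the relatives is analysed here. The 5 genes most like HDA7 lost their call in the same 3 fits as HDA7. Every other called probe set lost its call there too, so this is no mark of likeness. AT2G32310, AT5G35580 and AT5G35640 have no value where the dimmest 33.3% were removed.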

Other observations

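Among the 17 chromatin genes taken by name, 3 belong to the CLASSY family of remodelling ATPases, which guide RNA polymerase IV to sites of RNA-directed DNA methylation: CHR42 (CLSY2), CHR31 (CLSY3) and CHR40 (CLSY4). They were picked out after their values were seen. CHR31 read 8.28 and 8.16 in wild type and 7.96 and 7.85 in cdm1 (log2 difference -0.32, 95% interval from -0.56 to -0.070, limma adjusted p = 0.227). A second, dimmer probe set of CHR31 gave -0.55 (limma adjusted p = 0.131). CHR42 read 6.85 and 6.98 in wild type and 6.61 and 6.69 in cdm1 (log2 difference -0.26, limma adjusted p = 0.293). CHR40 was at -0.24 (limma adjusted p = 0.383). In all 4 probe sets the cdm1 arrays lay below the wild type arrays, and none passed limma's test over all probe sets. In either direction, 9 of the 17 genes taken by name and 47.3% of all probe sets showed no overlap. The share of all probe sets without overlap in the lower direction was not counted.

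The measured histone genes HTR12, MGH3, HIS1-3, HON4 and HTB2 did not pass either, where limma called 1.33% of all probe sets. The linker histone gene HIS1-3 spread most, at 5.07 and 6.06 in cdm1 and 6.02 and 6.43 in wild type. The centromeric histone gene HTR12 had a log2 difference of 0.043 (95% interval from -0.17 to 0.26), and the H2B gene HTB2 one of 0.13 (95% interval from -0.086 to 0.35). MGH3 was at 0.18 and HON4 at -0.057. The groups do not overlap for HTR12, HTB2, MGH3 and HON4, which was also true of 47.3% of all probe sets.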
